A study of Caenorhabditis elegans with 2 samples.

Results

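The genes described here are 6 chaperone genes of Caenorhabditis elegans, hsp-1, hsp-110, hsp-3, hsp-4, hsp-60 and hsp-6, out of 19985 protein-coding genes, read for peaks of the homeodomain factor PHA-2. They were selected on their function as chaperones of the cytosol, the endoplasmic reticulum and the mitochondrion and on the signal of the PHA-2 peaks near them, so the height of those peaks is a description and was not tested. The strain was OP687, which carries the mutation unc-119(tm4063) on chromosome III and the transgene wgIs687, from which PHA-2 is made with GFP and FLAG at its C-terminal end. Late embryos of both sexes, 3 h after synchronization by bleaching, were used whole, and an anti-GFP antibody was used to precipitate chromatin from 2 biological replicates, which form 1 group. The files used hold no second genotype or treatment and no precipitation without the tagged factor, so no value below separates PHA-2 binding from signal that any such precipitation would give. Whole embryos pool all cell types, so a peak does not say in which cells it arose, and a signal from few cells cannot be told apart from weak binding in many.

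Chaperones hold unfolded proteins until they fold. HSP70 proteins bind short exposed stretches of a chain in cycles of ATP hydrolysis, HSP110 proteins act on HSP70 as exchange factors, and chaperonins such as HSP60 enclose a chain in a barrel that a small co-chaperonin closes. Each compartment has its own set, and separate stress pathways raise them: heat shock factor for the cytosol, the unfolded protein response of the endoplasmic reticulum, which induces hsp-4 in worms, and that of mitochondria, which induces hsp-6 and hsp-60. PHA-2 is known for forming the isthmus of the pharynx, and nothing in the labels links it to chaperones.

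A gene is read here by its window, the stretch that begins 1000 bp before its annotated 5′ end and stops 500 bp after it, and by the summit of highest signal in it. Signal is the authors' own value for a peak, whose scale the files do not state. The relaxed lists held 30000 peaks for the pooled replicates, 23371 for replicate 1 and 24336 for replicate 2. Their median signals were 46.8, 29.1 and 29.0, so signals are compared between lists by rank. The optimal list holds the 878 strongest pooled peaks, down to a signal of 120. Where the best summits of both replicates lay within 100 bp of each other, the pooled signal was close to the sum of the replicate signals, with a median ratio of 1.01 over 2156 protein-coding genes. No read counts are given, so the depth behind a signal is unknown.

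The sequences that carry the description are those around the pooled summits of hsp-60 and hsp-1, the genes with an optimal peak, of hsp-110, a gene without one that has the same kind of motif, and of hsp-3, the gene nearest below the optimal threshold. Each line gives the strand of the gene 5′ to 3′, from the RefSeq sequence of WBcel235, the assembly also known as ce11, centred on the summit, except that for hsp-3 only the bases before the annotated 5′ end are shown. Capitals mark pairs of heat shock units, GAANNTTC or TTCNNGAA, for hsp-60, hsp-1 and hsp-110, and the core GACGTG of an unfolded protein response element for hsp-3.
hsp-60 (chrIII:1619028-1619228, plus strand): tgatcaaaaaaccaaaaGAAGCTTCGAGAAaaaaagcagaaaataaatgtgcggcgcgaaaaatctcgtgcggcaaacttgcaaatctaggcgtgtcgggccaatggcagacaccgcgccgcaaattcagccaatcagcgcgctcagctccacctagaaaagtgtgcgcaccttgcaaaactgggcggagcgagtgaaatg
hsp-1 (chrIV:17278503-17278703, plus strand): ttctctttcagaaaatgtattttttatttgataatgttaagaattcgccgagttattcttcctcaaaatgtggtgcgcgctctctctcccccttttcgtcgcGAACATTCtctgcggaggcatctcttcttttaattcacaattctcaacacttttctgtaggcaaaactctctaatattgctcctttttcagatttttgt
hsp-110 (chrIII:8447016-8447216, minus strand): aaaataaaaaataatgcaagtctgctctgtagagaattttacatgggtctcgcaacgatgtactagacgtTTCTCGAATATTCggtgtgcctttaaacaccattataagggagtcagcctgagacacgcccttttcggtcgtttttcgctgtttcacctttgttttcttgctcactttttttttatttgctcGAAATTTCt
hsp-3 (chrX:6092125-6092256, minus strand): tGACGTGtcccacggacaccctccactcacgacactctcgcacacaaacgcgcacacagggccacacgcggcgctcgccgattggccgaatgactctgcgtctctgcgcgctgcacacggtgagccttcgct

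Of the 6 genes, 2 had a summit of the optimal list in the window, hsp-60 and hsp-1, where 2.80% of all protein-coding genes had one. All 6 had a summit in the relaxed pooled list, against 39.6% of protein-coding genes. In the relaxed list of replicate 1, 5 of the 6 had a summit (33.9% of protein-coding genes), and in that of replicate 2 also 5 (34.6%). The 6 genes were chosen with these peaks known, so nothing is read from the size of these shares. Within each compartment pair, 1 gene stood well above the other: hsp-1 above hsp-110, hsp-3 above hsp-4 and hsp-60 above hsp-6, in the pooled list and wherever both genes of a pair were listed in a replicate.

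**Figure D1:**
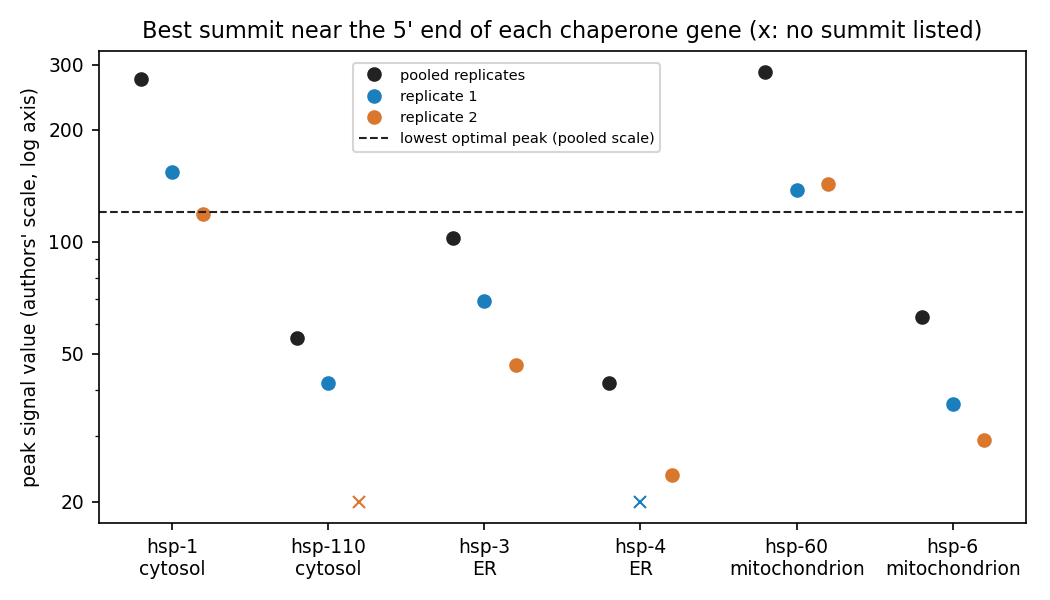
Signal of the strongest summit in the window of each chaperone gene (log axis), in the pooled list and each replicate list, with a cross where a list has no summit in the window. Both hsp-1 and hsp-60 lie above the dashed line at the lowest optimal peak (120) on the pooled scale, hsp-3 lies just below it at 102, and the other 3 genes lie between 41.8 and 62.9.

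In the cytosol, hsp-1 encodes the constitutive HSP70 protein (WBGene00002005, chromosome IV, 17278959 to 17281330, plus strand). Its optimal peak spanned 17278375 to 17278830 on ce11, with the summit 356 bp upstream of the 5′ end. Pooling gave a signal of 274, while replicate 1 had 154 and replicate 2 had 119. These signals stood at ranks 143, 136 and 187 of their lists, and all 3 lists placed the summit on the same base. The −log10 q-value was 2.07 in the pooled list, the highest that list contains, which hsp-60 also had, so it does not single out hsp-1. Read by gene, 83 protein-coding genes (0.415%) had a higher pooled signal in their window. Its neighbours in that order were C46F11.4 (277), annotated as an RNA helicase, and nhr-255 (273), a nuclear hormone receptor gene, so the level of hsp-1 was shared by genes of other kinds.

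The hsp-1 summit lay in no annotated gene. A non-coding RNA gene on the same strand, F26D10.23, starts 546 bp upstream of hsp-1, and the summit was 190 bp downstream of that start. Among genes of tRNAs, snoRNAs and snRNAs, the nearest was the snoRNA gene F26D10.24 inside hsp-1, 1443 bp from the summit. A weaker summit followed at 146 bp upstream of hsp-1, with a pooled signal of 48.4, which is 17.7% of the stronger one. Replicate 1 listed it with a signal of 25.8 and replicate 2 did not list it. Outside the window, pooled summits at -1678 (74.4) and +749 (60.7) were the next ones.

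The other cytosolic gene, hsp-110, encodes the HSP110 exchange factor (WBGene00016250, chromosome III, 8443910 to 8446909, minus strand). Its best summit was 207 bp upstream of the 5′ end, in a peak from 8446888 to 8447343. The pooled signal was 55.0, at rank 9663, and that of replicate 1 was 41.8, at rank 3674, with the summits 6 bp apart. Replicate 2 listed no summit in the window, so the hsp-110 peak was seen in 1 of the 2 replicates. The summit also lay 237 bp upstream of the divergent gene rpn-3, a subunit of the regulatory particle of the proteasome, whose start is 444 bp from that of hsp-110. Closer still was the start of a non-coding RNA gene on the strand of hsp-110, C30C11.14, with the summit 21 bp upstream of it. Nothing in a peak list assigns such a summit to any of these genes.

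In the endoplasmic reticulum, hsp-3 and hsp-4 encode BiP-type HSP70 proteins. The gene hsp-3 (WBGene00002007, chromosome X, 6089028 to 6092124, minus strand) had its best pooled summit at -32, close to its 5′ end, in a peak from 6091928 to 6092383. Its pooled signal was 102, which is 0.85 of the lowest optimal signal and so the nearest of the 6 genes below that threshold. Replicate 1 gave 69.3 at rank 783, which is within its 878 strongest peaks (down to 66.3). Replicate 2 gave 46.8 at rank 2363, outside its 878 strongest (down to 62.5), with its summit on the other side of the 5′ end at +104. The replicate summits were 151 bp apart, the ranks 1580 apart, and a second pooled summit of 58.6 lay 199 bp from the first. The signal at hsp-3 was thus spread over several summits, which the replicates placed differently. Outside the window, further pooled summits lay at -1082 (77.7) and at +1146 (65.2), inside the gene.

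The gene hsp-4 (WBGene00002008, chromosome II, 7350112 to 7352645, minus strand), the BiP homolog that reports unfolded protein stress in worms, had the lowest signals of the 6. Its best pooled summit lay at -658 in a peak from 7353075 to 7353530, with a signal of 41.8 at rank 19602, below the median of the pooled list. Replicate 2 gave 23.6 at rank 20481, and replicate 1 listed no summit in the window. A second summit at +447, inside the gene, had a pooled signal of 38.1. By the pooled signal in the window, 5910 protein-coding genes (29.6%) were above hsp-4 and 832 (4.16%) above hsp-3.

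**Figure D2:**
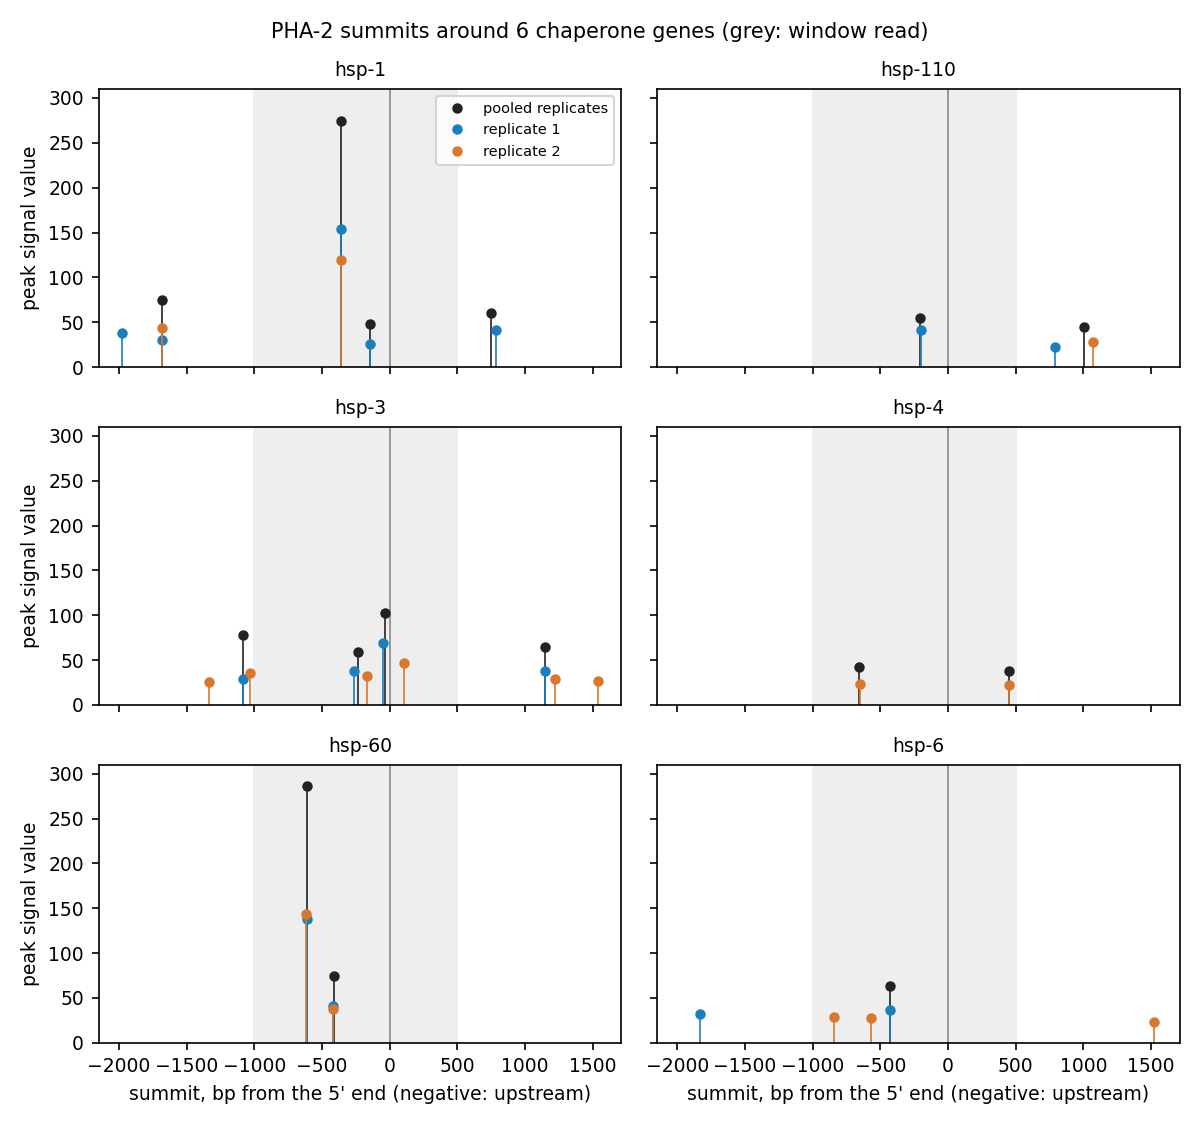
Position of each summit from 2000 bp upstream to 2000 bp downstream of the 5′ end of the chaperone genes (x axis, negative values upstream) against its signal (y axis, linear), for the pooled list and each replicate. The window read is grey; at hsp-60 and hsp-1 the 3 lists meet on 1 place, at hsp-3 and hsp-6 the best summits of the replicates are 151 and 415 bp apart, and hsp-4 and hsp-110 each lack a summit of 1 replicate in the window.

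In mitochondria, hsp-60 encodes the chaperonin (WBGene00002025, chromosome III, 1619742 to 1625803, plus strand), and its peak was the strongest of the 6. It spanned 1618900 to 1619355, with the summit 614 bp upstream of the 5′ end. Pooled, it reached 286 at rank 132, with 138 in replicate 1 at rank 167 and 144 in replicate 2 at rank 124. The replicate summits were 1 bp apart. By gene, 72 protein-coding genes (0.36%) had a higher pooled signal, with ntl-2 (291) next above. The gene next below was dad-1 (285), a subunit of the oligosaccharyltransferase. A weaker pooled summit of 74.9 stood 205 bp closer to hsp-60, at -409, and both replicates listed it, at 40.7 and 37.8.

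The hsp-60 summit sat between divergent genes of the same machine. On the other strand Y22D7AL.10 (WBGene00021248, 1617151 to 1618929), annotated by RefSeq as the mitochondrial heat shock protein of the co-chaperonin class, starts 813 bp from hsp-60. The summit was 199 bp upstream of Y22D7AL.10 and 614 bp upstream of hsp-60, so it lay closer to the start of the co-chaperonin gene. Of the 416 nuclear optimal peaks in the window of a protein-coding gene, 127 (30.5%) lay between divergent protein-coding starts, so this arrangement was common. No snoRNA, snRNA or tRNA gene was nearer than 14355 bp.

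The HSP70 gene of mitochondria, hsp-6 (WBGene00002010, chromosome V, 4824124 to 4826760, minus strand), had a best pooled summit at -427 with a signal of 62.9 at rank 6389, in a peak from 4826959 to 4827414. Replicate 1 gave 36.7 at rank 5732 on the same base. Replicate 2 gave 29.3 at rank 11769, 415 bp away at -842, and 27.6 at -569. Both replicate 2 peaks overlapped that of replicate 1, but the farther one had the higher signal, so the best summits of the replicates lay apart. The pooled summit lay within the overlapping non-coding RNA genes C37H5.15 and C37H5.16, and 173 bp upstream of the divergent gene C37H5.5, a homolog of nucleolar complex protein NOC3.

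**Figure D3:**
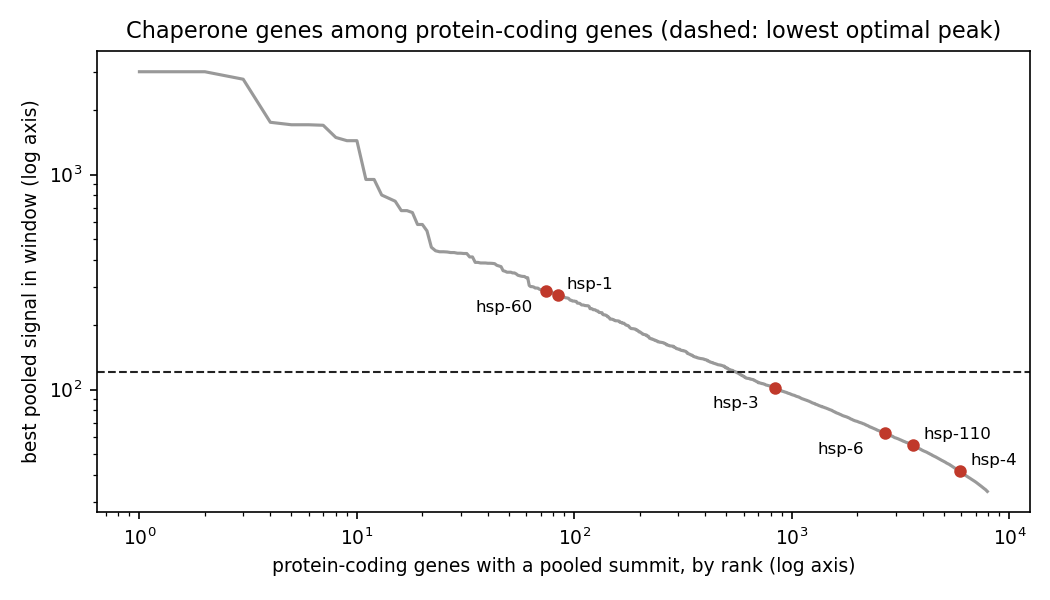
Best pooled signal in the window (y axis, log) of the 7922 protein-coding genes that have a pooled summit, in order of signal (x axis, log), with the 6 chaperone genes marked. The genes hsp-60 and hsp-1 are 73rd and 84th in this order, hsp-3 lies just below the dashed line at the lowest optimal peak, and hsp-6, hsp-110 and hsp-4 lie in the long tail.

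Best summits of both replicates within 100 bp of each other were found at 2 of the 6 genes, hsp-60 and hsp-1, against 10.8% of all protein-coding genes. Of the 4296 protein-coding genes with a summit in both replicates, 2156 (50.2%) had them that close. Among the 6 genes, those with a summit in both were hsp-1, hsp-3, hsp-6 and hsp-60. Of the 560 genes with an optimal summit, as hsp-60 and hsp-1 have, 489 (87.3%) had close ones. Among the 878 strongest peaks of replicate 1 there was a summit at 3 of the 6 genes, hsp-1, hsp-3 and hsp-60 (2.83% of protein-coding genes), and among those of replicate 2 at 2, hsp-1 and hsp-60 (2.45%). The ratio of the replicate 1 signal to the replicate 2 signal was 1.30 at hsp-1, 0.96 at hsp-60 and 1.48 at hsp-3. Over the 489 genes with an optimal summit and close replicate summits, the median ratio was 1.15, the 10th percentile 0.821 and the 90th 1.74. The ratios of hsp-1 and hsp-60 lay in that range. At hsp-3 the replicate summits were 151 bp apart and not optimal, so its ratio divides signals of different summits and is not of that class. The same holds for hsp-6 (1.25, summits 415 bp apart).

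Neither optimal summit was nearest to the start of the chaperone gene. The best pooled summits of hsp-110 and hsp-6 were also nearer to other starts, 21 bp from that of C30C11.14 and 77 bp from that of C37H5.16. When each optimal summit was given to the nearest 5′ end of any gene, 0 of the 6 genes kept one: the hsp-60 peak went to Y22D7AL.10 and the hsp-1 peak to the non-coding RNA gene F26D10.23. With a shorter window, 500 bp upstream to 0 bp downstream, 1 gene, hsp-1, held an optimal summit, since the hsp-60 summit is farther out, and the best pooled signal left in the hsp-60 window was 74.9.

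The bases up to 100 bp to either side of each best pooled summit were searched for named motifs on both strands, and none of these was found at all 6 genes. The homeodomain cores TAATTA and CAATTA were in none of the 6 windows. They were in 6.07% and 8.88% of the 856 nuclear optimal summit windows, and in 9.79% and 14.5% of the 29976 pooled ones. TATAAA, the E box CACGTG and the B box core GGTTCGA of tRNA genes were also in none of the 6. The last of these was in 12.7% of optimal windows. Base composition varied, from 37.3% G and C at hsp-1 and 38.3% at hsp-110 to 50.2% at hsp-60 and 62.7% at hsp-3, around a median of 45.5% for optimal windows and 36.3% for pooled ones. All 36-base words of the 6 windows occur once in the genome, so at that length reads there have 1 place to map.

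Pairs of heat shock units, the inverted pentamers that heat shock factor binds, were found at 3 of the 6 summits, hsp-60, hsp-1 and hsp-110. The pair at hsp-1 was centred 5 bp from the summit. At hsp-60 overlapping pairs were centred 80 and 75 bp upstream of the summit (-80 and -75), and at hsp-110 27 and 22 bp upstream (-27 and -22), with a further pair at +95. Measured from the 5′ end of hsp-60, its pairs lay at -694 and -689, on the side of the summit towards the divergent gene Y22D7AL.10. A pair was present in 14.7% of nuclear optimal windows, 24.1% of pooled windows and 32.5% of the 300 bp from 250 bp upstream to 50 bp downstream of protein-coding 5′ ends. Overlapping pairs form a run of 3 alternating units, a form searched for after the sequences were seen. Such a run was at 2 of the 6 summits, hsp-60 and hsp-110, against 1.52% of optimal windows, 1.54% of pooled windows and 1.97% of the 300 bp regions. In the 300 bp regions of the 6 genes themselves, 3 had a pair, hsp-1, hsp-4 and hsp-110, and hsp-60 had none. A run was in 2 of these regions, hsp-1 and hsp-110, where hsp-110 had a second run at -115 from its 5′ end. The hsp-110 summit with its run had no optimal peak, and hsp-1 has a run at -144, beside its weak summit at -146 and not at its strong one. A match describes letters and does not show that a factor binds.

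Cores of the unfolded protein response element, GACGTG on either strand, were found near both genes of the endoplasmic reticulum. At hsp-3 they began 131 bp upstream and 33 bp downstream of the 5′ end, both within the summit window. At hsp-4 they began 83 bp upstream and 27 bp downstream, more than 500 bp from its best pooled summit. The core was in 5.37% of optimal windows, 3.98% of pooled windows and 6.66% of the 300 bp regions at protein-coding starts.

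A wider set of 84 other chaperone and stress genes in 7 lists was read in the same way. Of these, 11 had an optimal summit in the window (13.1%, beside 2.80% of all protein-coding genes), at 10 distinct summits. For all 11 it lay upstream of the 5′ end, but the window reaches farther upstream than downstream, so nothing is read from that. In the pooled list 57 of the 84 had a summit (67.9%, beside 39.6%). The median signal of those 57 was 67.9, against 52.4 over all protein-coding genes with one. Close replicate summits, within 100 bp, were found at 27 of the 84, beside 2156 of the 19985 protein-coding genes (10.8%). Of the 27, 16 had no optimal summit. Of the 2156, only 489 had an optimal summit, so weaker peaks placed alike by both replicates were not particular to this set. The lists include genes that share a promoter, so the genes are not independent of each other, and the shares were not tested.

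The cytosolic list was led by F44E5.4 and F44E5.5, divergent HSP70 genes that share 1 summit whose pooled signal was 232, beside 119 for replicate 1 and 112 for replicate 2. That signal was lower than at hsp-1 and the highest of its list. Of the 36-base words in that window, 96.4% occur once in the genome. The HSP90 gene hsp-90 had no pooled summit and a single weak one in replicate 1 (25.4), and the heat-inducible hsp-70 had none in any of the 3 relaxed lists. In the mitochondrial list, Y22D7AL.10 shares the hsp-60 peak, and no other of its 10 genes had an optimal summit.

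Of the 14 genes of the cytosolic chaperonin CCT and of prefoldin, which hands nascent actin and tubulin to it, 3 had an optimal summit: cct-8 (154), pfd-5 (142) and cct-6 (139). Of the 14 cytosolic co-chaperones there were also 3, namely bag-1 (154), a nucleotide exchange factor of HSP70, ahsa-1 (139), an activator of the HSP90 ATPase, and fkb-6 (122), a peptidylprolyl isomerase. The ahsa-1 peak was also the best in the window of C01G10.7, and the fkb-6 peak in that of F31D4.2, genes outside the lists. Such peaks are not assigned to the listed gene, and the reading by nearest 5′ end was not made for the 84 genes. Of the 14 chaperones and folding enzymes of the endoplasmic reticulum there were 2, the protein disulfide isomerase genes pdi-3 (140) and pdi-2 (132). All 8 signals were lower than those of hsp-1 and hsp-60. All 11 genes with an optimal summit had replicate summits within 100 bp of each other, from 0 bp at bag-1 and cct-6 to 97 bp at pdi-2. By rank the replicates placed several of them far apart: bag-1 at 371 and 2025, pdi-3 at 406 and 3476, cct-6 at 427 and 2110, pdi-2 at 2065 and 287 and fkb-6 at 2988 and 566. Of the 11 genes, 4 were among the 878 strongest peaks of both replicates, F44E5.4, F44E5.5, Y22D7AL.10 and pfd-5.

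Among the 14 small heat shock genes and the 12 stress regulators, 0 had an optimal summit, and with 2.80% of all protein-coding genes having one, these lists are too short for that to stand apart. Of the regulators, 11 of 12 had a pooled summit (91.7%, beside 39.6% of all protein-coding genes). Highest were xbp-1 (94.8), the transcription factor of the unfolded protein response, and atf-6 (81.8), while the heat shock factor gene hsf-1 had 38.1. Replicate summits within 100 bp of each other were found at 1 of the 12, near the share of 10.8% of all protein-coding genes. The replicate summits were 191 bp apart at xbp-1 and 149 bp at atf-6, and replicate 1 listed none at hsf-1. Of the small heat shock genes, 4 of 14 had a pooled summit (28.6%, near the overall share), hsp-16.2 and hsp-16.41 sharing 1 of 77.3. The gene pairs named hsp-16.1 and hsp-16.48 in the annotation had none, and none of the 36-base words in the 300 bp upstream of those 4 genes occurs once in the genome, so reads of that length could not be placed there uniquely, and whether this bears on the empty entries was not tested. All such words upstream of hsp-70 occur once. Below the optimal threshold, the strongest of the 84 genes were dnj-19 (116) and dnj-13 (107), J-domain partners of HSP70. They were followed by enpl-1 (104), the HSP90 of the endoplasmic reticulum, pdi-6 (103) and pfd-1 (102), level with hsp-3. The dnj-19 summit was also the best in the window of nhr-47, a gene outside the lists.

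**Figure D4:**
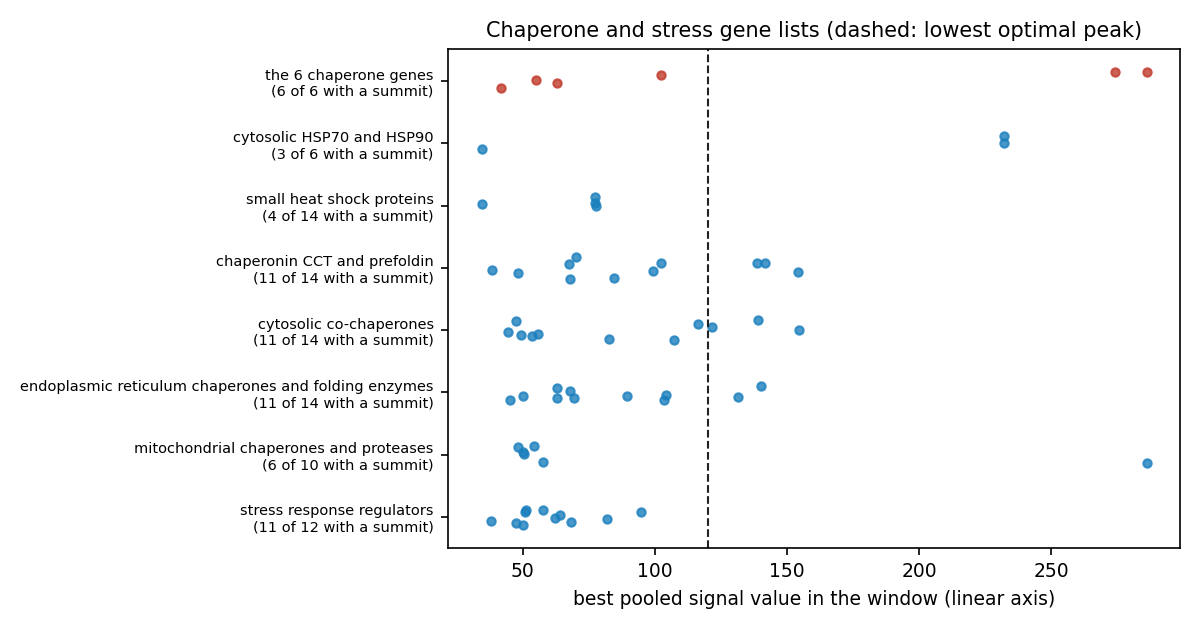
Best pooled signal in the window (x axis, linear) of the 6 chaperone genes and of the genes of the other lists, 1 point a gene, spread vertically so that points can be seen; genes without a pooled summit are counted in the labels only. Y22D7AL.10 is the same peak as hsp-60 (286), and F44E5.4 and F44E5.5 are 1 peak (232); the other genes with an optimal summit lie between 122 and 154.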

How the data were processed

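Per the labels, sonicated chromatin of whole late embryos of 2 biological replicates was precipitated by an anti-GFP antibody. The authors deposited narrowPeak lists; the 4 on ce11 were used (optimal, pooled and 1 per replicate), and ce10 lists were not used. Each deposited peak has a signal value and a −log10 q-value from the authors' caller and a summit offset. Per the text deposited with each library, all lists were made against a control, which was not analysed here. Which aligner and caller were used is not given in the sources used here. The optimal list is the 878 strongest pooled peaks (878 of 878 matched). No list gives reads, so depth is unknown.

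Genes are from Ensembl release 115 on WBcel235; 0 peaks ran past a chromosome end of the RefSeq genome. For each gene the summit of highest signal within 1000 bp before and 500 bp after its 5′ end was taken, with Python 3.11.15 and pandas 2.3.3. The run of 3 heat shock units, and the counts of pairs at other chaperone genes, were chosen after the sequences were seen. The search was first tested on made-up positions. There is 1 group, so no test between groups was made. The 6 genes and the lists were chosen with earlier results of these data known. Of 87 names in the lists, 5 had no match, and 2 symbols stand for 2 genes each. Named are the 6 genes, the listed genes with an optimal summit, the 5 strongest without, genes sharing a summit, and neighbours in rank. The genes hsp-90, hsp-70, xbp-1, atf-6, hsf-1, hsp-16.1, hsp-16.2, hsp-16.41 and hsp-16.48 were named after their values were seen. Alternatives were other windows, gene ends, lists and single replicates.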

Additional observations from a re-analysis of the deposited data

How the results depend on the processing

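The count of chaperone genes with an optimal summit, 2 of 6, was 1 with the window of 500 bp upstream and 0 bp downstream and 0 by the nearest 5′ end. It was 2 or 3 under the other 7 alternatives, with the 878 strongest peaks of a single replicate giving 2 (replicate 2) and 3 (replicate 1, which adds hsp-3). The count of genes with close replicate summits stayed at 2 or rose to 3 (hsp-3, with a distance of 200 bp). Of the 84 other genes, 11 had an optimal summit, 3 when optimal peaks at or below the median optimal signal (159) were left out, and 6 to 10 with single replicates: 6 in replicate 2 and 10 in replicate 1. The best pooled signal was unchanged in 19 of 23 alternative readings; the window of 500 bp upstream gave 74.9 at hsp-60, and taking the summit nearest to the 5′ end gave 48.4 at hsp-1, 74.9 at hsp-60 and 38.1 at hsp-4. With the window of 500 bp upstream hsp-4 had no summit to read. The lowest listed signal was 21.8 in each replicate, so a gene without a summit may have signal below it, and without read counts no interval can be given.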

Other observations

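Weaker companion summits about 200 bp from a strong one, as at hsp-60 and hsp-1, were frequent: 387 of the 856 nuclear optimal peaks (45.2%) had a weaker pooled summit 150 to 250 bp away, at a median distance of 204 bp and with a median of 36.7% of the stronger signal. The smallest distance between any pooled summits was 199 bp, so the pooled list holds no closer ones, and the second pooled summit of hsp-3 lay at that distance.

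Pairs of heat shock units were at 7 of the 10 distinct optimal summits of the other chaperone genes, where 14.7% of all nuclear optimal windows had one, and runs of 3 alternating units at 3 of the 10 (1.52% of all nuclear optimal windows), those of F44E5.4, ahsa-1 and Y22D7AL.10, the last being the hsp-60 summit. At 45 best pooled summits of listed genes without an optimal peak, 16 (35.6%) had a pair and 3 (6.67%) a run, beside 24.1% and 1.54% of all nuclear pooled windows. In the 300 bp at the starts of all 84 genes, 43 (51.2%) had a pair and 17 (20.2%) a run, beside 32.5% and 1.97% at all protein-coding starts. These counts were made after the sequences were seen and were not tested.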
